A study of Mus musculus with 6 samples.

Results

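Among the genes that detect microbial products and open the cell membrane in RAW264.7 macrophages, 8 were followed: the sensor Nlrp3, the adaptor Pycard, the caspases Casp1, Casp4 and Casp8, the pore-forming gasdermins Gsdmd and Gsdme, and the membrane rupture protein Ninj1. They were taken by symbol from the authors' deposited table of 25124 genes, and each of the 8 symbols matched 1 row. In M1 cells Casp4, Casp1, Nlrp3, Ninj1, Gsdmd and Casp8 rose relative to M0 cells, and Gsdme and Pycard fell. The increases ran from 1.15-fold for Casp8 to 15.6-fold for Casp4, as ratios of mean TPM, and Gsdme was 5.72-fold lower in M1 cells. All 8 genes were at 1 TPM or more in all 6 libraries.

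RAW264.7 is a mouse macrophage cell line. The M1 cells had received lipopolysaccharide (LPS, a component of the bacterial outer membrane) at 100 ng/ml and interferon-γ (IFN-γ) at 50 ng/ml, and the M0 cells had received neither. Both groups came from a control line that had been given a Cas9 plasmid lacking a guide, made to be set against E4BP4 knockout cells, and both grew in medium with 25 mM glucose. Each group held 3 samples of polyadenylated RNA. The sources used here do not state how long the treatment lasted or whether the line is 1 clone.

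An inflammasome is a protein complex in which a sensor such as NLRP3 recruits the adaptor ASC, the product of Pycard, and through it caspase-1. Caspase-1 matures interleukin-1β and interleukin-18 and cleaves gasdermin D, whose freed part forms pores in the plasma membrane; caspase-11, the product of mouse Casp4, binds LPS in the cytosol and cleaves gasdermin D without a separate sensor. Cell lysis after pore formation is known to depend on NINJ1, while caspase-8 and gasdermin E connect the same machinery to apoptosis. Macrophages are known to use this pathway, called pyroptosis, against bacteria, and Nlrp3 and Casp4 are known as genes whose transcripts LPS and interferons raise.

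Reads in genes numbered 15615639 to 20283180 per library. TPM is a measure per unit of transcript length, scaled within each library, so levels in TPM can be compared between genes. For a transcript of 2000 bases, 1 TPM stood for 26.5 to 34.42 reads. All 8 macrophage markers examined were detected, with a summed level of 2463 to 2493 TPM in M1 libraries and 2790 to 3028 TPM in M0 libraries. Of these markers, 3 rose and 4 fell, and Adgre1, which encodes F4/80, was at 67.6 ± 1.13 TPM in M1 cells and 2.73 ± 0.505 TPM in M0 cells (SD, n = 3 each, as for all following means). Marker lists of T cells, B cells and epithelium summed to at most 0.303 TPM in any library, with Cd3g, Cd2, Krt8 and Krt18 among those at 0 in all 6. Lists of fibroblasts and endothelium summed to at most 1.16 TPM in any library. The neutrophil list summed to 3.83 to 4.59 TPM in M1 libraries and 4.43 to 5.98 TPM in M0 libraries, mostly from S100a8, with S100a9 at 0 in all 6. In bulk RNA, a change in the number of cells that express a gene and a change in RNA per cell cannot be told apart. The labels do not tell whether the replicates are separate cultures, so each p-value reflects the spread among these samples only, and that spread may be technical.

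Most genes differed between M1 and M0 cells. With limma on log2(TPM + 1), 80.2% of the 11297 tested genes passed an adjusted p of 0.05 (Benjamini-Hochberg over all of them), 18.7% as higher in M1 cells and 61.5% as lower. The median change of all tested genes was -0.31 on the log2 scale, so the zero of the TPM scale lay above the middle of the genes. After the libraries were rescaled by median-of-ratios factors, the median change was 0.02, and 73.5% of the tested genes were called, 38.1% as higher and 35.4% as lower. All 8 of the genes described here were called on both scales, 6 as higher and 2 as lower. Since most tested genes were called, that each of the 8 passed the threshold is close to the background. Their median log2 change was 0.97 on the TPM scale, against -0.31 for all tested genes, and 1.33 after rescaling, against 0.02. "Rose" and "fell" are used of calls on the TPM scale, and the rescaled value is given where it alters a call or a direction.

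**Figure D1:**
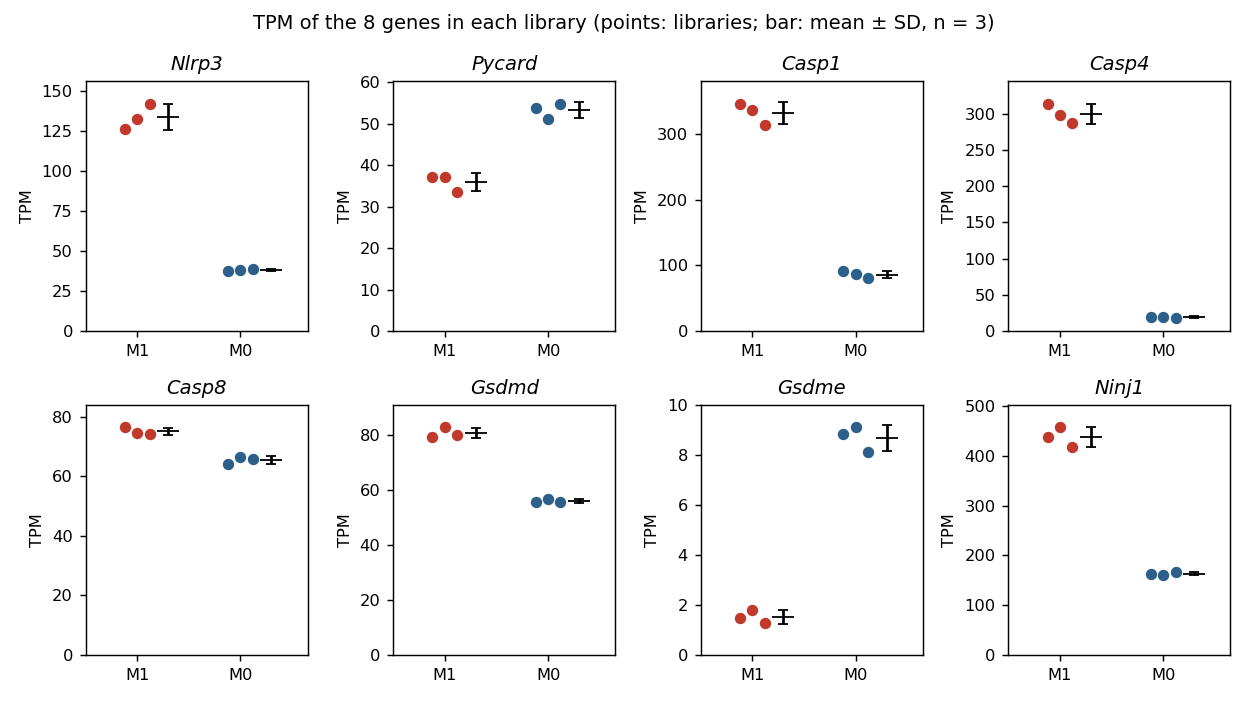
TPM (vertical axis, linear from 0, one scale per gene) of the 8 genes in each M1 library (left, red) and M0 library (right, blue), with the mean ± SD of 3 libraries beside the points. In none of the 8 genes did the M1 and M0 libraries overlap. The share of all tested genes without overlap was not computed, so the separation is a description only. By limma calls, a different measure, 80.2% of all tested genes differed. Pycard and Gsdme were lower in M1 cells.

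Nlrp3 (NM_001359638, chr11:59541569-59566953, plus strand, mm10) encodes the sensor that responds to potassium loss and membrane damage. It was at 127, 133 and 142 TPM in the M1 libraries and at 37.4, 38.6 and 38.7 TPM in the M0 libraries. Every M1 library lay above every M0 library, and the M1 libraries were spread more widely. The mean was 134 ± 7.91 TPM in M1 cells and 38.2 ± 0.717 TPM in M0 cells, a 3.51-fold difference (log2 change 1.78, SE 0.05, limma adjusted p = 6.2e-11). The change was the 368th largest increase among the 11297 tested genes. In M1 cells 93.0% of tested genes lay below Nlrp3 in level, against 74.3% in M0 cells.

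Pycard (NM_023258, chr7:127991373-127993867, minus strand) encodes ASC, which joins the sensor to caspase-1. It was at 37.1, 37.2 and 33.5 TPM in the M1 libraries and at 53.9, 51.1 and 54.8 TPM in the M0 libraries. The M1 libraries were all lower. The mean was 36.0 ± 2.13 TPM in M1 cells and 53.3 ± 1.91 TPM in M0 cells, and the log2 change was -0.56 with an SE of 0.06 (limma adjusted p = 2.6e-06). On the same scale the median of all tested genes was -0.31. Rescaling brought the change of Pycard to -0.20 (limma adjusted p = 0.013). The authors' deposited table likewise gives -0.20, with an adjusted p of 0.011. RAW264.7 cells are known for lacking ASC protein, and these libraries held 1091 to 1365 reads assigned to Pycard in M1 cells and 1547 to 1807 in M0 cells; protein was not measured. Of the 2130 counted bases of its row, 582, or 27.3%, are coding in the GENCODE M21 annotation, the smallest share among the 8 genes. Whether counting used strand is not stated in the sources used here, and an unconfirmed transcript, Gm45205, overlaps Pycard on the opposite strand, so reads of the pair could not be told apart.

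With the sensor higher and the adaptor lower, the ratio between their transcripts turned over. The Nlrp3 level was 3.41, 3.57 and 4.25 times the Pycard level in the M1 libraries, and 0.694, 0.754 and 0.705 times in the M0 libraries. Nlrp3 was thus the more abundant of the pair in every M1 library and the less abundant in every M0 library. The Casp1 level was 9.31, 9.03 and 9.36 times the Pycard level in the M1 libraries, and 1.69, 1.69 and 1.47 times in the M0 libraries. Ratios within a library do not depend on how libraries are scaled to each other. For this and 9 other ratios computed in the same way the groups did not overlap. The pairs were chosen with earlier results of these data known, and 80.2% of all tested genes were called. The share of other gene pairs without overlap was not computed, so the separation is a description only. Each ratio had an exact two-sided permutation p of 0.10, the smallest that 3 samples against 3 allow, so none can pass 0.05.

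Casp1 and Casp4 lie next to each other on chromosome 9, on the plus strand, with 1567 bases between the end of the first and the start of the second in the deposited coordinates. Casp1 (NM_009807, chr9:5298517-5307281) encodes the protease of the canonical inflammasome. It was at 346, 336 and 314 TPM in the M1 libraries and at 90.9, 86.6 and 80.8 TPM in the M0 libraries. The lowest M1 library was more than 3 times the highest M0 library. Casp1 averaged 332 ± 16.5 TPM in M1 cells and 86.1 ± 5.04 TPM in M0 cells, 3.86-fold higher (log2 change 1.94, SE 0.06, limma adjusted p = 5.6e-11).

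Casp4 (NM_007609, chr9:5308849-5336791) encodes caspase-11, the LPS-binding protease of the noncanonical pathway. It was at 314, 298 and 287 TPM in the M1 libraries and at 20.1, 19.9 and 17.7 TPM in the M0 libraries. No library of either group came near the other group. The mean was 300 ± 13.4 TPM in M1 cells and 19.2 ± 1.33 TPM in M0 cells, with a log2 change of 3.90 (95% confidence interval 3.77 to 4.02, limma adjusted p = 2.1e-13), the 103rd largest increase of all tested genes and the largest of the 8. Between 6281 and 7533 reads per M1 library and 335 to 452 reads per M0 library stood behind it.

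The changes of the 2 neighbours differed in size. Within a library, Casp4 stood at 0.907, 0.887 and 0.915 of Casp1 in M1 cells and at 0.221, 0.229 and 0.219 of Casp1 in M0 cells. Casp4 therefore came close to Casp1 in M1 cells and was far below it in M0 cells. In M1 cells the lowest Casp1 library and the highest Casp4 library both stood at 314 TPM to 3 digits. Casp12, the next gene on the same strand, starts 8.7 kb beyond the end of Casp4; it had 1 read over the M1 libraries and 7 over the M0 libraries. Casp1 and Casp4 are similar in sequence, and reads that match both could have been split between them.

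The promoter windows of Casp4 and Casp1 are shown because the neighbours changed by different amounts, with that of Nlrp3 as the risen sensor and that of Gsdme as the gene with the largest decrease of the 8. They are RefSeq sequences of GRCm38.p6, read 5′ to 3′ on the gene's strand from 250 bases before to 50 bases after the start. Casp4 and Nlrp3 each have 2 windows in RefSeq, and the one printed begins from the start of the deposited transcript. Capitals mark matches, on either strand, to GGGANTTCC, a form of the NF-κB site, or to AANNGAAA, the core that interferon regulatory factors bind.
Casp4, chr9:5308599-5308898, plus strand: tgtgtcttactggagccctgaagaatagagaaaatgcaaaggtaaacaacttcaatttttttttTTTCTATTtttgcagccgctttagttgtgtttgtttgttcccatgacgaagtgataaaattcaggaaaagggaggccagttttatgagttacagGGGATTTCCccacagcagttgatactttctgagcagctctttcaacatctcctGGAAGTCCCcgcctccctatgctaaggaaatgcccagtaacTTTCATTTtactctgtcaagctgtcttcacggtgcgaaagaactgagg
Casp1, chr9:5298267-5298566, plus strand: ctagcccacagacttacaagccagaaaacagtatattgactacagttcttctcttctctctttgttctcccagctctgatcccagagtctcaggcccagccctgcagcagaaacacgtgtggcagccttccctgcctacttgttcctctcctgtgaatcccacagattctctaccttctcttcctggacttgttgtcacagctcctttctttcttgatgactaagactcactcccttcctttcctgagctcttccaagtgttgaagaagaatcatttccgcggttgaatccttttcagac
Nlrp3, chr11:59541319-59541618, plus strand: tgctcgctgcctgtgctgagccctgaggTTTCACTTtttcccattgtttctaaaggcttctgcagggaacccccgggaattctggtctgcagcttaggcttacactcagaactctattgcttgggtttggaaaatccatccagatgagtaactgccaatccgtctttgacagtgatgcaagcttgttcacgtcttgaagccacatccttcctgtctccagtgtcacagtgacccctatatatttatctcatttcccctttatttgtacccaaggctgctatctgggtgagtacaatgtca
Gsdme, chr6:50261720-50262019, minus strand: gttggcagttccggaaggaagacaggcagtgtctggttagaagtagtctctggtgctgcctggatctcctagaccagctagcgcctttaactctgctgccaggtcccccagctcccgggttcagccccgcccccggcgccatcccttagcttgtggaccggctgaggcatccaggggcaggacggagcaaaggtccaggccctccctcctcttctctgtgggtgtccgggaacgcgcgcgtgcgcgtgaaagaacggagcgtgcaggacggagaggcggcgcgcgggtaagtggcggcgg

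In the Casp4 window GGGATTTCC begins 92 bases before the start, and GGAAGTCCC, the same pattern on the other strand, begins 39 bases before it. From the other RefSeq start of Casp4 the same matches lie 103 and 50 bases before the start. The other Nlrp3 window holds 2 matches to AANNGAAA, against 1 in the printed one. Among the 7 genes with a window (all but Gsdmd), Casp4 alone matched GGGANTTCC. It is held by 1.68% of all 32851 RefSeq windows of that length and by 1.92% of genes, counted over all their windows. The shorter AANNGAAA is held by 23.92% of windows and 26.67% of genes, and Casp4, Casp8, Nlrp3 and Pycard had it. Both patterns were added after the windows had been read. Another 4 patterns had no match in any window of the 7 genes: GAAANNGAA, a form of the interferon-stimulated response element (8.56% of all windows), TTCNNNGAA, a STAT site (8.3%), GGGANTTTC, another NF-κB form (1.11%), and TGANTCA, an AP-1 site (7.81%). By gene, the shares of these patterns were 9.76%, 9.55%, 1.29% and 8.97%, in the same order. The capitalised stretches in the printed windows do not overlap each other. A match describes letters in the window and does not show binding.

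Casp8 (NM_001080126, chr1:58802502-58847503, plus strand) encodes the initiator caspase of death receptors, which restrains necroptosis and in mouse macrophages can also cleave gasdermin D. It was at 76.4, 74.4 and 74.3 TPM in the M1 libraries and at 63.9, 66.5 and 65.8 TPM in the M0 libraries. The M1 libraries were all higher, by a margin small beside those of Casp1 and Casp4. The mean was 75.0 ± 1.16 TPM in M1 cells and 65.4 ± 1.32 TPM in M0 cells, a log2 change of 0.19 (95% confidence interval 0.10 to 0.29, limma adjusted p = 0.0014). Its size depended on the scaling: it was 0.55 after rescaling and 0.50 in the authors' deposited table. Casp8 stood at 0.221, 0.221 and 0.237 of Casp1 in the M1 libraries and at 0.704, 0.768 and 0.815 of Casp1 in the M0 libraries. An unconfirmed transcript, Gm37760, overlaps the Casp8 row, so its reads could add to it.

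Gsdmd (NM_026960, chr15:75862339-75867404, plus strand) encodes gasdermin D, the pore former that caspase-1 and caspase-11 release. It was at 79.3, 82.8 and 80.1 TPM in the M1 libraries and at 55.7, 56.8 and 55.5 TPM in the M0 libraries. Both groups were tight and apart. Gsdmd averaged 80.7 ± 1.83 TPM in M1 cells and 56.0 ± 0.716 TPM in M0 cells, 1.44-fold higher (log2 change 0.52, SE 0.04, limma adjusted p = 5.6e-07). After rescaling the log2 change was 0.88, and it was 0.89 in the authors' deposited table. The substrate gene changed less than the gene of its protease: Gsdmd stood at 0.229, 0.246 and 0.255 of Casp1 in the M1 libraries and at 0.613, 0.656 and 0.687 in the M0 libraries.

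Gsdme (NM_018769, chr6:50207401-50261769, minus strand) encodes gasdermin E, a pore former that is opened by cleavage during apoptosis. It was at 1.49, 1.81 and 1.26 TPM in the M1 libraries and at 8.86, 9.11 and 8.11 TPM in the M0 libraries. It was the least abundant of the 8 genes in all 6 libraries, and every M1 library lay well below every M0 library. The mean was 1.52 ± 0.273 TPM in M1 cells and 8.69 ± 0.521 TPM in M0 cells, and the log2 change was -1.95 with an SE of 0.09 (limma adjusted p = 3.8e-09), the 154th largest decrease of all tested genes. With a pseudocount of 0.1 in place of 1, the log2 change was -2.45. It was -1.67 after rescaling and -2.16 in the authors' deposited table. Only 41 to 66 reads per M1 library and 228 to 296 per M0 library were assigned to it. Its coefficient of variation was 18.0% in M1 cells, where counting alone gives 13.7%, and 6.0% in M0 cells, where counting alone gives 6.06%.

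The balance between the 2 gasdermins shifted with these changes. The Gsdmd level was 53.3, 45.8 and 63.4 times that of Gsdme in the M1 libraries and 6.29, 6.24 and 6.85 times in the M0 libraries. The other 8 genes of the gasdermin list did not reach the level for testing. The highest of them, Gsdmc4, averaged 0.137 TPM in M1 cells and 0.207 TPM in M0 cells, and Gsdma2, Gsdmc, Gsdmc3 and Pjvk were at 0 in all 6 libraries.

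Ninj1 (NM_013610, chr13:49187529-49196251, plus strand) encodes the membrane protein that ruptures the plasma membrane of dying cells. It was at 438, 457 and 417 TPM in the M1 libraries and at 163, 160 and 167 TPM in the M0 libraries. The M1 libraries were all more than 2 times any M0 library. Ninj1 averaged 438 ± 19.9 TPM in M1 cells and 163 ± 3.66 TPM in M0 cells, 2.68-fold higher (log2 change 1.42, SE 0.05, limma adjusted p = 2.1e-10). It was the most abundant of the 8 in both groups. Its level was 5.53, 5.53 and 5.21 times that of Gsdmd in the M1 libraries and 2.92, 2.82 and 3.02 times in the M0 libraries.

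**Figure D2:**
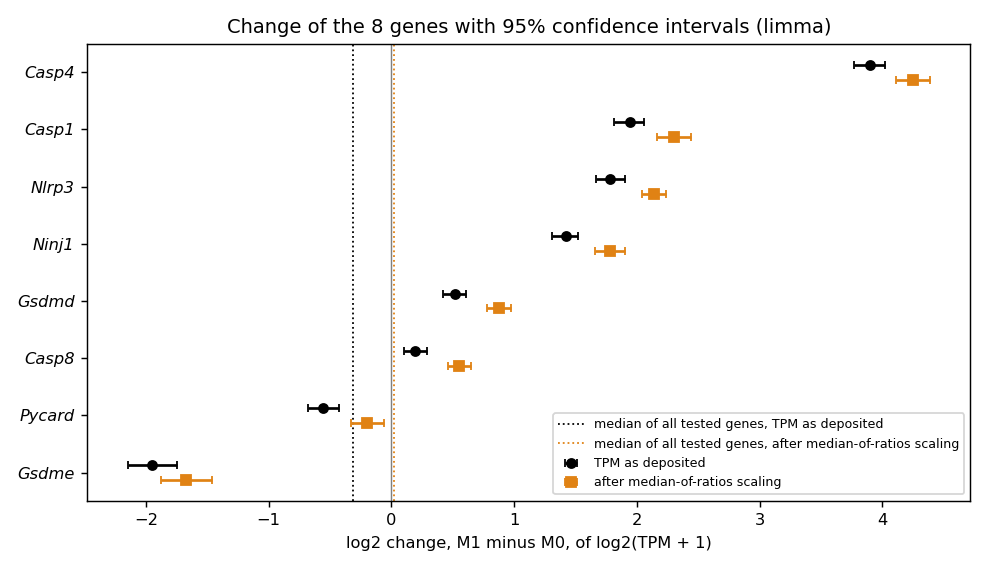
Log2 change, M1 minus M0 (horizontal axis, of log2(TPM + 1)), of the 8 genes with limma's 95% confidence intervals, on the TPM scale (black circles) and after median-of-ratios scaling (orange squares). Dotted lines mark the median of all tested genes, -0.31 and 0.02; Casp4 lies farthest to the right at 3.90 and Gsdme farthest to the left at -1.95 on the TPM scale.

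The 8 genes summed to 1419, 1421 and 1349 TPM in the M1 libraries and to 494, 489 and 489 TPM in the M0 libraries. Casp1 and Casp4 together supplied 44.5% to 46.5% of that sum in M1 libraries and 20.1% to 22.5% in M0 libraries, while Ninj1 supplied 30.9% to 32.2% in M1 libraries and 32.8% to 34.2% in M0 libraries. By level the order was Ninj1, Casp1, Casp4, Nlrp3, Gsdmd, Casp8, Pycard and Gsdme in M1 cells, and Ninj1, Casp1, Casp8, Gsdmd, Pycard, Nlrp3, Casp4 and Gsdme in M0 cells. Casp4 and Nlrp3 thus stood above Casp8, Gsdmd and Pycard in M1 cells and below them in M0 cells. Neighbours in each order did not overlap between libraries. The closest were Casp1 and Casp4 in M1 cells, and in M0 cells Gsdmd, with a lowest library of 55.5 TPM, and Pycard, with a highest of 54.8 TPM. Relative to the median of all tested genes, the log2 changes were 4.21 for Casp4, 2.25 for Casp1, 2.09 for Nlrp3, 1.73 for Ninj1, 0.83 for Gsdmd, 0.51 for Casp8, -0.24 for Pycard and -1.64 for Gsdme.

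**Figure D3:**
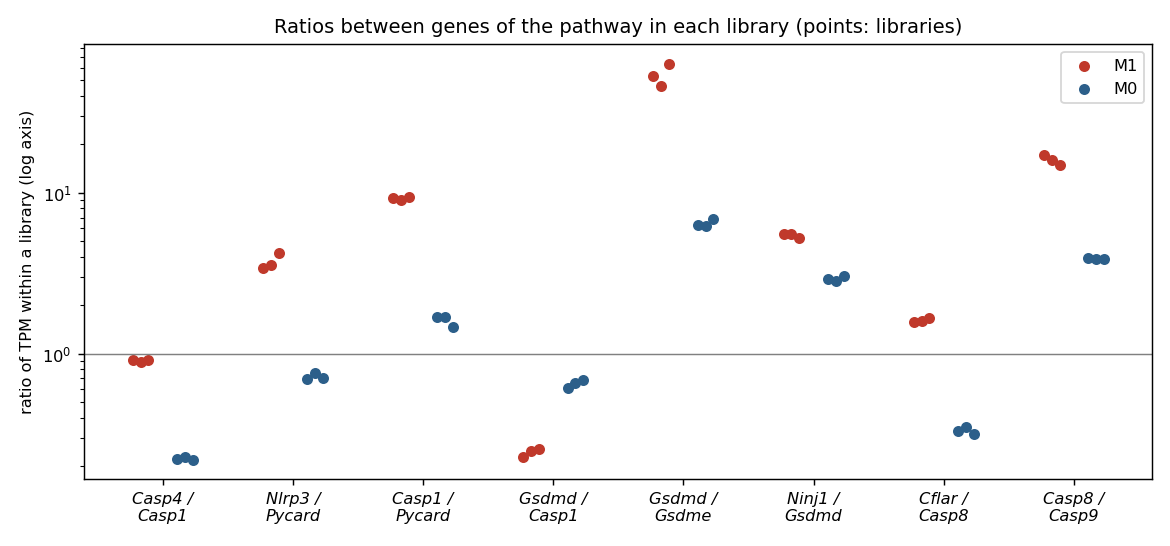
Ratio of TPM between the named genes within each library (vertical axis, log scale) for 8 pairs, with M1 libraries in red and M0 libraries in blue; the grey line is a ratio of 1. The ratios of Nlrp3 to Pycard and of Cflar to Casp8 lie above 1 in all M1 libraries and below 1 in all M0 libraries.

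Beyond these genes, 9 lists of the pathway held 82 other genes, of which 58 were tested. On the TPM scale 22 rose, 27 fell and 9 were not called, with a median log2 change of -0.10 against -0.31 for all tested genes. Of all tested genes, 18.7% rose and 61.5% fell on that scale. After rescaling 32 were higher, 15 were lower and 11 were not called, with a median of 0.20 against 0.02. The shares of all tested genes were then 38.1% higher and 35.4% lower.

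Of the 8 inflammasome sensors that reached the level for testing, Nlrp3 rose, 4 fell and 3 were not called on the TPM scale, where 18.7% of all tested genes rose and 61.5% fell. Those shares are near the background of all tested genes. The median was -0.17, and -0.11 without Nlrp1a, which passed the level filter only through M0 cells and so had to differ. With no filter on level, 3 sensors were called higher, the others being Nlrp10 (0.452 TPM in M1 cells and 0.0760 TPM in M0 cells) and Mefv (0.376 TPM in M1 cells and 0.0313 TPM in M0 cells), both named after their values were seen. There were 5 sensors higher and 2 lower in the authors' deposited table, and with a filter at 5 TPM 1 was lower. Nlrp1b, a sensor of bacterial toxin proteases, was at 6.01 ± 0.493 TPM in M1 cells and 10.9 ± 0.411 TPM in M0 cells (log2 change -0.77, limma adjusted p = 1.4e-06). Nlrc4, which signals for flagellin receptors, was at 1.48 ± 0.160 TPM in M1 cells and 2.83 ± 0.349 TPM in M0 cells (log2 change -0.63, limma adjusted p = 5.6e-05). Aim2, a sensor of cytosolic DNA, was the most abundant sensor not called, at 55.8 ± 2.47 TPM in M1 cells and 53.0 ± 2.16 TPM in M0 cells. After rescaling Aim2 and Naip2 were also called higher, giving 3 higher and 3 lower, beside 38.1% and 35.4% of all tested genes. Leaving out M0 replicate 1 or M0 replicate 2 left 2 sensors called lower.

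None of the 10 tested genes for NLRP3 licensing and ion channels rose on the TPM scale and 7 fell, a share near the 61.5% of all tested genes that fell. The median was -0.50, against -0.31 for all tested genes. Nek7, the kinase that NLRP3 needs to assemble, was at 33.0 ± 0.948 TPM in M1 cells and 56.4 ± 2.61 TPM in M0 cells (log2 change -0.75, limma adjusted p = 9.1e-08). Kcnk6, which encodes the potassium channel TWIK2, was at 8.47 ± 0.709 TPM in M1 cells and 21.2 ± 1.82 TPM in M0 cells (log2 change -1.23, limma adjusted p = 5.0e-08). Ddx3x, an RNA helicase that binds NLRP3, was not called at 158 ± 7.15 TPM in M1 cells and 147 ± 11.5 TPM in M0 cells, but was called higher without M0 replicate 2 (0.16, limma adjusted p = 0.029) and after rescaling (0.47). After rescaling 5 of the 10 were lower and 2, Ddx3x and Panx1, were higher, beside 35.4% and 38.1% of all tested genes.

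The 8 tested caspases were divided, 4 higher and 4 lower on both scales. Of all tested genes, 18.7% were higher and 61.5% lower on the TPM scale, and 38.1% and 35.4% after rescaling. Casp9, the initiator caspase of the mitochondrial pathway, was at 4.69 ± 0.270 TPM in M1 cells and 16.9 ± 0.570 TPM in M0 cells (log2 change -1.65, limma adjusted p = 9.1e-10). Casp6 was at 7.10 ± 0.341 TPM in M1 cells and 16.9 ± 1.74 TPM in M0 cells (log2 change -1.14, limma adjusted p = 9.5e-08). Casp1, Casp4 and Casp8 were among the 4 that rose. The ratio of Casp8 to Casp9 was 17.2, 16.0 and 14.9 in the M1 libraries and 3.95, 3.85 and 3.85 in the M0 libraries.

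Around Casp8, 6 of 10 tested platform and partner genes rose and 4 fell, with a median of 0.66. Zbp1 passed the level filter mainly through M1 cells, and in M0 cells only replicate 2 reached it (1.02 TPM). The filter thus favoured a difference. Without Zbp1, 5 of 9 rose and the median was 0.35. Of all tested genes, 18.7% rose and 61.5% fell, with a median of -0.31. The death receptor Fas was at 154 ± 6.57 TPM in M1 cells and 4.38 ± 0.289 TPM in M0 cells (log2 change 4.85, limma adjusted p = 3.5e-14). Zbp1, a sensor of Z-form nucleic acids, was at 44.0 ± 2.56 TPM in M1 cells and 0.525 ± 0.445 TPM in M0 cells. Fas rose, whereas the adaptor genes Fadd and Tradd fell. After rescaling Fadd was at -0.37 and Tradd at -0.29, both still called lower. Ripk1, another gene of the list, rose (log2 change 0.35, limma adjusted p = 4.3e-04), as did Mlkl (1.57) and Tnfrsf1a (0.97). Ripk3 fell (-0.32) and was not called after rescaling (0.03). These genes and Ticam1 are outside the naming rule given with the processing. Ticam1 fell on the TPM scale (-0.19) but was called higher after rescaling (0.14). Fadd, the adaptor that binds caspase-8 directly, was at 5.89 ± 0.190 TPM in M1 cells and 10.1 ± 0.321 TPM in M0 cells (log2 change -0.69, limma adjusted p = 1.3e-06). Tradd, the adaptor of the TNF receptor, was at 19.6 ± 1.90 TPM in M1 cells and 31.1 ± 0.827 TPM in M0 cells (log2 change -0.64, limma adjusted p = 5.0e-06). Cflar encodes c-FLIP, the caspase-like partner that restrains caspase-8, and was named after its values were seen. It was at 121 ± 2.38 TPM in M1 cells and 21.7 ± 1.39 TPM in M0 cells (log2 change 2.42, limma adjusted p = 5.6e-12). The Cflar level was 1.57, 1.60 and 1.66 times that of Casp8 in the M1 libraries and 0.330, 0.351 and 0.315 times in the M0 libraries. After rescaling 7 of the 10 genes were higher and 2 lower, beside 38.1% and 35.4% of all tested genes.

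Of 7 tested genes of the apoptosome and its inhibitors, 5 rose and 1 fell, with a median of 0.45. Those that rose included Apaf1 (0.45), Cycs (0.15, limma adjusted p = 0.037) and Xiap (0.58). With no filter, equal column sums, or limma without trend and robust, 4 were called higher. The same held without some single libraries. Of all tested genes, 18.7% rose and 61.5% fell, with a median of -0.31. Birc3, which encodes the inhibitor of apoptosis cIAP2, was at 120 ± 2.54 TPM in M1 cells and 25.5 ± 1.48 TPM in M0 cells (log2 change 2.19, limma adjusted p = 1.1e-11). Birc2, its paralog, was at 19.5 ± 0.393 TPM in M1 cells and 9.20 ± 0.226 TPM in M0 cells (log2 change 1.01, limma adjusted p = 1.7e-08). Diablo encodes a mitochondrial antagonist of these inhibitors and was the 1 that fell (log2 change -0.25, limma adjusted p = 0.0025), but after rescaling its change was 0.09 and not called. Htra2, a mitochondrial protease, was at 90.1 ± 2.43 TPM in M1 cells and 91.6 ± 2.71 TPM in M0 cells and was not called, while after rescaling it was called higher at 0.34.

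Downstream of the gasdermin pore, the 13 tested genes of membrane rupture and ESCRT-III repair, the machinery that sheds damaged membrane, were split on the TPM scale. Ninj1 and 4 others rose and 6 fell, with a median of -0.15, whereas after rescaling 8 were higher and 1 was lower. Of all tested genes, 18.7% rose and 61.5% fell on the TPM scale. After rescaling 38.1% of all tested genes were higher and 35.4% lower. Chmp4b, a core ESCRT-III filament subunit, was at 347 ± 12.9 TPM in M1 cells and 194 ± 4.71 TPM in M0 cells (log2 change 0.83, limma adjusted p = 1.4e-08). Chmp6, which starts the filament, was at 19.5 ± 0.986 TPM in M1 cells and 28.1 ± 0.820 TPM in M0 cells (log2 change -0.50, limma adjusted p = 6.4e-06). In the authors' deposited table the log2 change of Chmp6 was -0.17 and not called. The ATPase gene Vps4a fell on the TPM scale (-0.47) and was not called after rescaling (-0.12). Chmp2a was not called at 167 ± 7.43 TPM in M1 cells and 172 ± 1.56 TPM in M0 cells and was called higher after rescaling (0.32).

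All 5 tested genes of the list of inflammatory caspase substrates and related cytokine genes rose on both scales. Of all tested genes, 18.7% rose on the TPM scale and 38.1% were higher after rescaling. Il1a and Il1b passed the level filter only through M1 cells and so had to differ. Of the other 3, Il18 encodes a caspase-1 substrate, while Il18bp and Il1rn encode inhibitors of these cytokines. These 3 had a median of 3.69 on the TPM scale, the value of Il18bp, against 5.01 with all 5. Il1b, the precursor that caspase-1 matures, was at 391, 405 and 366 TPM in the M1 libraries and at 0.190, 0.246 and 0.282 TPM in the M0 libraries, where it rested on 14 reads in all. Il1rn, which encodes the antagonist of the same receptor, was at 408 ± 7.40 TPM in M1 cells and 8.31 ± 0.682 TPM in M0 cells (log2 change 5.46, limma adjusted p = 9.8e-15). Il1b and Il1rn transcripts were therefore at like levels in M1 cells. Without any 1 of the M1 libraries Il1a and Il1b were not tested, and 3 genes were called. Il18, the other caspase-1 substrate, named after its values were seen, was at 24.6 ± 1.47 TPM in M1 cells and 8.21 ± 0.871 TPM in M0 cells (log2 change 1.48, limma adjusted p = 1.0e-08). Among inhibitors, 2 were tested. Serpinb9, which inhibits granzyme B, was at 124 ± 4.02 TPM in M1 cells and 13.2 ± 0.978 TPM in M0 cells (log2 change 3.15, limma adjusted p = 1.4e-12). Serpinb6a fell on the TPM scale (-0.23) and was called higher after rescaling (0.13).

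**Figure D4:**
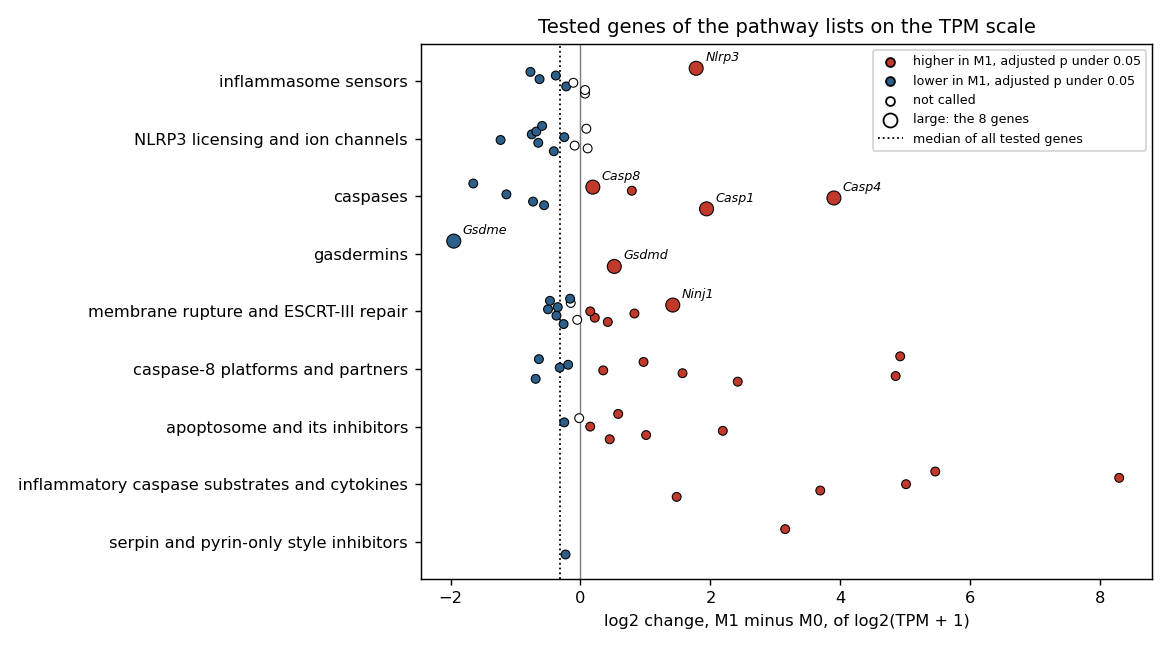
Log2 change, M1 minus M0 (horizontal axis, of log2(TPM + 1)), of the tested genes of the 9 lists, 1 row per list; red is higher in M1, blue is lower, white is not called, and 7 of the 8 genes are drawn large and named (Pycard is in no list). The dotted line is the median of all tested genes at -0.31; Nlrp3 is the only red point among the 8 tested sensors.

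Likeness to each of the 8 was sought among the tested genes, passing over predicted genes and small RNA genes. Of those kept, the genes with the most similar levels over the 6 libraries were found by Euclidean distance on log2(TPM + 1). For Casp4 they were Tap1, the peptide transporter of antigen presentation (0.43), and Trex1, a DNA exonuclease (0.53). For Casp1 they were Tapbp, which encodes tapasin (0.33), and Slc2a6, a sugar transporter (0.52). For Nlrp3 they were Lcp2, a signalling adaptor (0.12), and Nfkb2, an NF-κB subunit (0.20). The neighbours of Ninj1 were Prdx5 (0.14) and H2-Q4 (0.28), those of Gsdmd Ppp1r11 (0.13) and Sat1 (0.16), those of Casp8 Trnt1 (0.03) and Psma3 (0.14), those of Pycard Kdelr2 (0.10) and Acat1 (0.14), and those of Gsdme Cbx8 (0.32) and Btbd17 (0.35). The measure ranks likeness in level and change and was not tested.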

How the data were processed

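The authors deposited TPM per gene and library, per the file headers, and a second table with log2 values per library (transform not stated) and the log2 fold change with raw and adjusted p-values from their own comparison. STAR 2.7.5a, HOMER 4.11.1, bcl2fastq, DESeq2 and the build mm10 are listed, without roles, per the submitters' processing notes. The authors' fold changes ran as M1 over M0, since their sign matched the library columns in 100.0% of 5002 genes. Their Gsdme row has an older symbol and was matched by RefSeq accession.

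Of 25124 genes, the 11297 with at least 1 TPM in 3 samples were fitted with limma 3.58.1 in R 4.3.3 (trend and robust) on log2(TPM + 1) with group as the only term, adjusted by Benjamini-Hochberg and called under 0.05. The pseudocount of 1 understates changes of low genes. The deposited TPM columns sum to 551256.6 to 572349.0. TPM times length was a whole multiple of 1 step per library, within 0.1, for 99.79% to 99.99% of values above 0, which gave the reads; these cover counting error only. Libraries of the same group differed beyond sampling noise, with a chi-square of 1.54 to 7.55 for each degree of freedom, so each counted once. Coding lengths came from GENCODE M21. The limma fit was also run on simulated data in which few genes changed, equally often up and down. Most genes were called in the real data, so that run cannot test the scaling.

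The 8 genes, the 9 lists and the tests were chosen with earlier results of these data known. The rule for naming genes from a list took those called with the largest changes in each direction, up to 2 each, and the most abundant not called. Other genes named from the lists, such as Cflar, Il18, Ripk1, Ticam1 and Apaf1, are outside this rule. Alternatives were a pseudocount of 0.1, no filter, a filter at 5 TPM, other scalings, limma without trend and robust, a replicate block, leaving out each library and the authors' deposited comparison. Some genes of the lists are counted but not reported by name here.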

Additional observations from a re-analysis of the deposited data

How the results depend on the processing

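All 8 genes kept their direction and call under each of the 14 alternatives run. Over them the log2 changes ran from 3.84 to 4.33 for Casp4, 1.89 to 2.31 for Casp1, 1.74 to 2.17 for Nlrp3, 1.37 to 1.80 for Ninj1, 0.48 to 0.89 for Gsdmd, 0.15 to 0.55 for Casp8, -0.60 to -0.20 for Pycard and -2.45 to -1.67 for Gsdme. The largest adjusted p among them was 0.013, for Pycard after median-of-ratios scaling. What moved was the split over all genes: 4305 were higher and 4002 lower after median-of-ratios scaling, and 4290 and 3881 in the authors' deposited comparison, against 2111 and 6944 on the TPM scale. The lists and the 8 genes together had 17 lower genes after median-of-ratios scaling and 15 in the authors' comparison, against 29. Among the genes named by the rule, Chmp2a (0.32), Diablo (0.09), Htra2 (0.34) and Serpinb6a (0.13) changed sign under both. Outside that rule, Ticam1 (0.14 and 0.15), Ripk3 (0.03 in both) and some other genes of the lists also did. With the replicate block, 2143 genes were higher and 7016 lower, and no call among the 8 changed. The numbers were not taken to pair the libraries, since nothing in the labels says that they do. In deviations from the group means, same-numbered libraries correlated at 0.0714, -0.0757 and 0.0368, and differently numbered ones at -0.179 to 0.152. Deviations within a group are tied together by its mean, so these correlations cannot decide the pairing. Depth limits Gsdme most, at 41 to 66 reads per M1 library.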
